A study of Mus musculus with 2 samples.

Results

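The enzymes that make, break down and read cyclic AMP and cyclic GMP were examined across the cell classes of the mouse hippocampus by single-nucleus RNA sequencing. Members were all genes whose symbol names a Pde phosphodiesterase family with a lettered isoform, an adenylyl cyclase (Adcy), a regulatory or catalytic subunit of protein kinase A (Prkar, Prkac), a cyclic GMP-dependent kinase (Prkg), a soluble guanylyl cyclase subunit (Gucy1) or a cyclic AMP-activated exchange factor (Rapgef3, Rapgef4). This rule found 46 of the 32285 genes listed: 22 phosphodiesterases, 10 adenylyl cyclases, 6 PKA subunits, 4 soluble guanylyl cyclase subunits, 2 PKG genes and 2 exchange factors. The rule used names only, and the members were left out of the clustering that formed the cell classes.

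Cyclic AMP is made by adenylyl cyclases, most of which answer to G proteins, and cyclic GMP by soluble guanylyl cyclases, which answer to nitric oxide, or by membrane guanylyl cyclases, which answer to peptides. Both messengers act through kinases (PKA for cyclic AMP, PKG for cyclic GMP), through channels they open and, for cyclic AMP, through the exchange factors known as Epac. Phosphodiesterases hydrolyse one or both of them and so set where and how long the signal lasts. In the hippocampus this pathway is best known for its part in long-lasting synaptic plasticity and memory.

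The samples were 2 libraries of hippocampal nuclei, 1 from male and 1 from female mice, all 3 months old and all of the genotype Stra8L/-; Nestin-Cre, a conditional deletion of Stra8, the gene known for committing germ cells to meiosis. Nestin-Cre drives recombination in neural progenitors, hence in the neurons and macroglia that arise from them. No library of another genotype was analysed here, and the sources used here do not say how many animals gave each library. With 1 library a sex no test was possible, and an effect of sex cannot be told apart from one of the animals, the dissection or the library.

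The male library held 103262825 UMIs over 16174 barcodes (median 4810 UMIs, 0.614% mitochondrial), and the female library 108286856 UMIs over 20150 barcodes (median 2798 UMIs, 1.47% mitochondrial). A UMI is a tag that lets copies of 1 RNA molecule be counted once. The libraries shared 101 barcodes. After filtering and doublet removal 13882 male and 17116 female nuclei remained. Stra8 itself was counted 3 times among the male barcodes (95% Poisson interval 0.619 to 8.77) and 6 times among the female barcodes (interval 2.2 to 13.1). Which exons were deleted is not stated, and 3' tags outside them would remain, so these counts check nothing.

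Named from known markers, 9 classes had at least 200 nuclei in each library: granule neurons (4039 male and 1979 female nuclei), CA3 pyramidal neurons (901 and 810), CA1 pyramidal neurons (1687 and 1582), excitatory neurons of the subiculum or entorhinal cortex (1118 and 538), GABAergic interneurons (587 and 396), astrocytes (1000 and 1482), oligodendrocytes (2350 and 3598), oligodendrocyte precursors (435 and 560) and microglia or macrophages (789 and 700). A class name stands for nuclei that resemble that type by its markers. Clusters left unnamed lay outside these classes and held more female than male nuclei. They were led by Ccdc152 and Actb (75 male and 2818 female nuclei), Ywhah and Dynll2 (640 and 963), and 6330411D24Rik and Ebf2 (39 and 753). The 9 classes thus cover a smaller share of the female library. The CA3 class joined a cluster led by Nectin3 and Trhde with a cluster led by Gm32647, Ccdc3 and Col6a1. After the stricter filter with renewed clustering, Gm32647 led a cluster named from hilar mossy markers and Ccdc3 was among the leading genes of one named from CA2 markers, so the CA3 name does not separate those types. The libraries stood apart within oligodendrocytes, where 1 cluster held 104 male and 3459 female nuclei and the other 2246 male and 139 female nuclei. They also differed in the make-up of the subicular class, where a cluster led by Gm49906 and Tshz2 held 478 male and 49 female nuclei. Levels are given as CPM, the UMIs of a gene per 1000000 UMIs of its class in 1 library, with the male value first. CPM depend on gene length and on where the 3' tags fall, so they are compared between classes for 1 gene, not between genes. The class of the subiculum or entorhinal cortex is called subicular for short, a name that does not separate those regions. Its nuclei also held CA1 markers, whose 8 genes summed to 2059 and 2598 CPM there, against 3392 and 3847 CPM in CA1 neurons.

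Of the 46 members, 39 reached 20 CPM in the same class in both libraries and are called expressed here. The highest class was the same in both libraries for 30 of these 39 (76.9%), against 74.5% of the 10117 genes expressed by the same measure. For 9 of the 39 (23.1%) that class also lay at least 2-fold above the next class in both libraries, against 16.1% of all expressed genes. These 9 were Pde4b, Pde8a and Pde1c in oligodendrocytes, Pde3b and Adcy7 in microglia, Pde5a and Pde9a in interneurons, Prkg2 in oligodendrocyte precursors and Rapgef3 in astrocytes. The members that were not expressed were Pde4c, Pde6a, Pde6b, Pde6c, Adcy4, Adcy6 and Gucy1b2, and the highest value among them in any of the 9 classes was 19.1 CPM, for Adcy6 in male oligodendrocyte precursors. Pde6a, Pde6b and Pde6c encode the catalytic subunits of the photoreceptor enzyme.

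**Figure D1:**
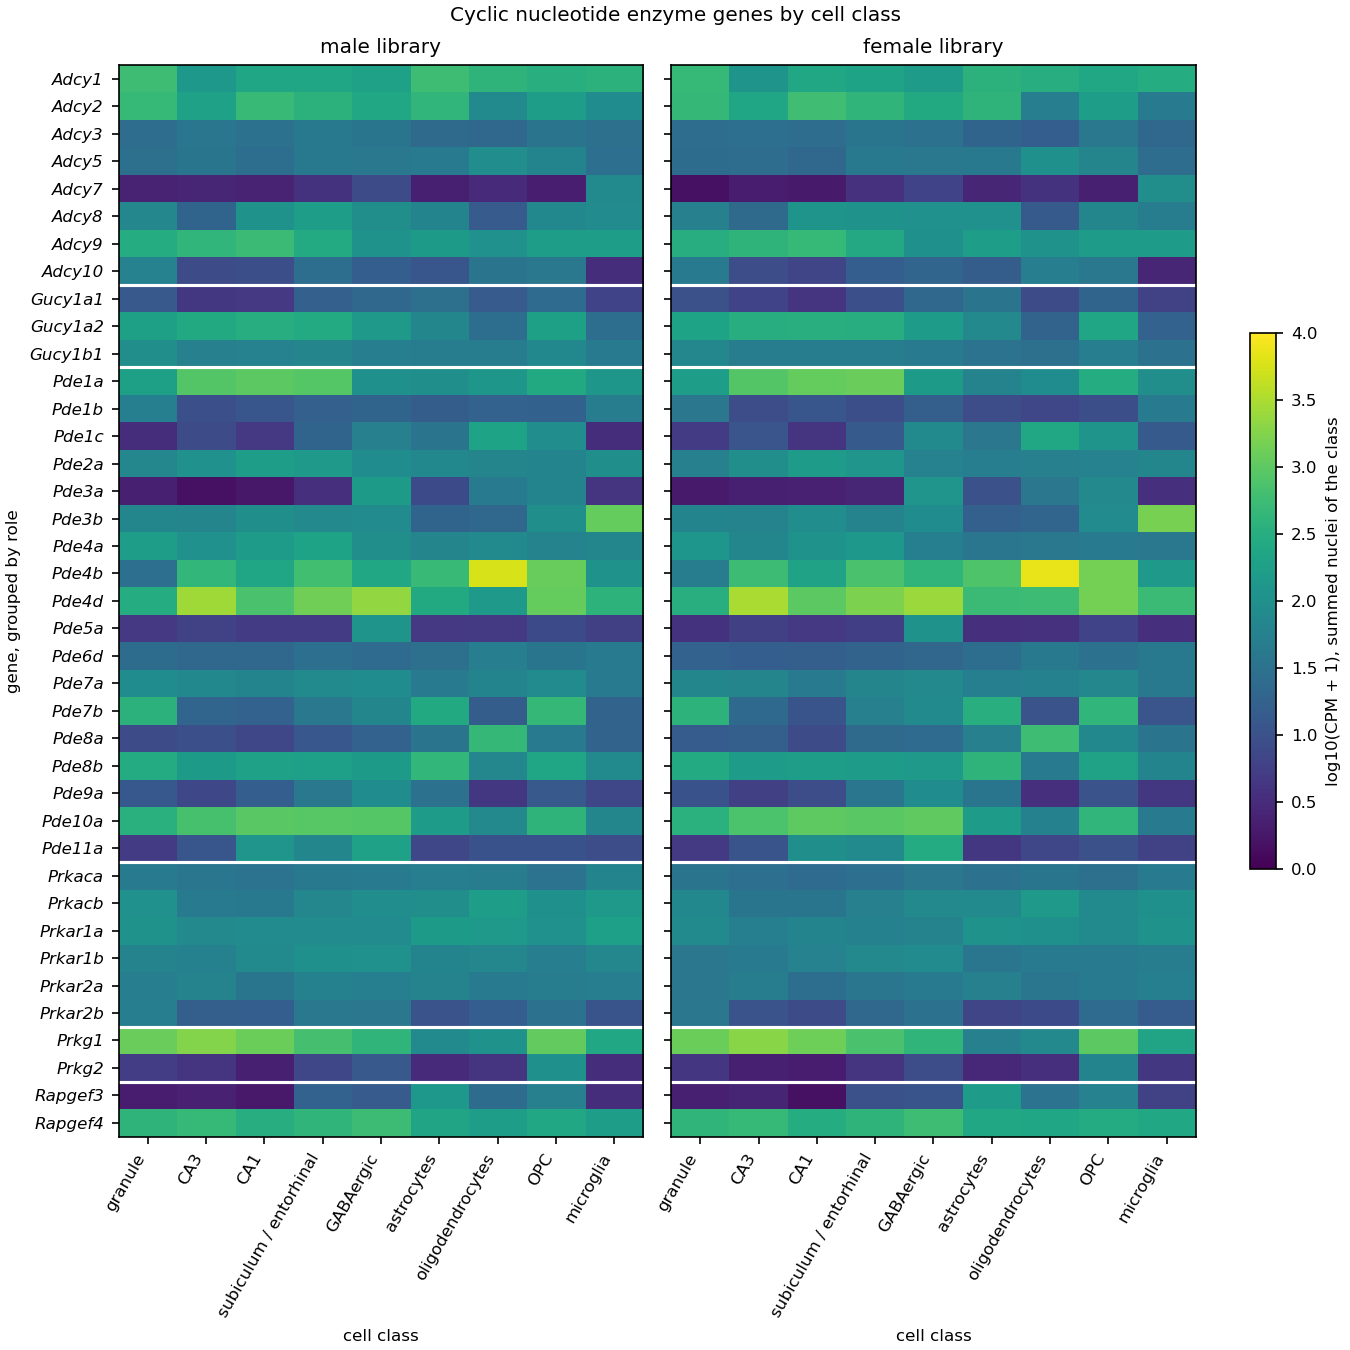
Level of each of the 39 expressed members in the 9 cell classes, as log10 of CPM plus 1, in the male library (left) and the female library (right). White lines separate roles, from adenylyl cyclases at the top through soluble guanylyl cyclases, phosphodiesterases, PKA subunits and PKG to Epac. Pde4b in oligodendrocytes is the brightest field in both panels, at 5748 and 7269 CPM.

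Among the adenylyl cyclases, 8 of 10 were expressed, and 4 of these had the same highest class in both libraries. Adcy7, a cyclase stimulated by G protein beta and gamma subunits and known from blood cells, stood at 78.9 and 92.9 CPM in microglia (95% intervals 64.3 to 95.7 and 76.3 to 112). In the next class, interneurons, it stood at 7.09 and 5.47 CPM. The microglial level was 11.1 and 17 times as high. A UMI of Adcy7 was found in 11.3 and 13.9% of microglial nuclei against 0.383 and 0.556% of oligodendrocytes, a class of similar depth (median 1541 and 1606 UMIs against 1652.5 and 1727.5).

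Adcy1 and Adcy8, which calcium and calmodulin stimulate and which are known for their part in hippocampal plasticity, were spread over many classes. Adcy1 was high in granule neurons (567 and 480.5 CPM) and astrocytes (577 and 372 CPM) and lowest in CA3 neurons (133 and 116 CPM). Its highest class was astrocytes in the male and granule neurons in the female library. Adcy8 was highest in subicular neurons of the male library (167 and 113 CPM) and in CA1 neurons of the female library (114 and 115 CPM), and lowest in oligodendrocytes (13.1 and 12.7 CPM). The Gm49906 cluster of the subicular class stood at 305 and 119 CPM, and the other clusters of that class at 119 and 104 and at 87.9 and 116 CPM.

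Adcy2, of the same beta-gamma stimulated group as Adcy7, was highest in CA1 neurons (489.7 and 602 CPM) and lowest in oligodendrocytes of the male library (77.8 CPM) and microglia of the female library (44.3 CPM). Adcy9, the cyclase that responds poorly to forskolin, was highest in the same class (524 and 471 CPM). Adcy5, which calcium inhibits, had its highest level in oligodendrocytes (89.96 and 102 CPM), with precursors next (63.1 and 64.4 CPM). Adcy9 was lowest in oligodendrocytes of the male (104 CPM) and interneurons of the female library (101 CPM), and Adcy5 was lowest in CA1 neurons (26.4 and 20.6 CPM). Adcy3, the cyclase of primary cilia, ranged only from 21.6 and 14.9 CPM in oligodendrocytes to 39.7 and 34.4 CPM in subicular neurons and 33.6 and 39.2 CPM in precursors. Adcy10, the soluble cyclase that bicarbonate activates, stood at 58.6 and 45.1 CPM in granule neurons and 34 and 51.1 CPM in oligodendrocytes, and which of the 2 classes was higher differed between the libraries. It was lowest in microglia (2.32 and 1.71 CPM).

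The nitric oxide receptor is a dimer of an alpha subunit (Gucy1a1 or Gucy1a2) and the beta subunit Gucy1b1. Gucy1a2 was highest in CA1 neurons (309 and 331 CPM) and similar in the subicular class (281 and 310.3 CPM) and CA3 (271 and 314 CPM). It was low in oligodendrocytes (26.9 and 17.8 CPM) and microglia (27.1 and 17.1 CPM). Gucy1a1 had another order: it was highest in astrocytes (29.2 and 34.1 CPM) and lowest in CA3 neurons of the male (3.44 CPM) and CA1 neurons of the female library (3.21 CPM). Gucy1b1, the shared partner, was highest in granule neurons (92.5 and 68.9 CPM) and lowest in microglia of the male (44.8 CPM) and oligodendrocytes of the female library (29.5 CPM). Gucy1b2 stayed at or under 2.31 CPM in all 9 classes.

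Phosphodiesterases supplied 6 of the 9 members with a dominant class. Pde4b (chromosome 4, 102087543 to 102607259; all positions are GENCODE vM21 on mm10) encodes a cyclic AMP-specific enzyme of the family that rolipram inhibits. It stood at 5748 and 7269 CPM in oligodendrocytes (intervals 5676 to 5820 and 7205 to 7333), and 1183 and 1439 CPM in precursors, the next class. The ratio was 4.86 and 5.05-fold, and 99.4 and 99.7% of oligodendrocyte nuclei held a UMI. Granule neurons were lowest (28 and 47.6 CPM). In nuclei thinned to 1000 UMIs, 98.6 and 99.4% of oligodendrocytes and 2.98 and 6.85% of granule neurons held a UMI of it. The level in astrocytes, 500.4 and 789.8 CPM, rested on a small cluster of 57 male and 136 female nuclei in which 39.3% of all barcodes had been called doublets (2432 and 3206 CPM), and was 302 and 345 CPM in the other astrocyte cluster. With a stricter filter and the nuclei clustered again, which kept 662 male and 542 female oligodendrocytes, Pde4b lay only 0.36 (log2) above the next class in the lower library.

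Pde8a (chromosome 7, 81213596 to 81334533) and Pde1c (chromosome 6, 56069804 to 56569103) shared the oligodendrocyte peak. Pde8a, a cyclic AMP-specific enzyme of high affinity, reached 468 and 575 CPM in oligodendrocytes (intervals 447 to 489 and 557 to 593) and 43.4 and 72.9 CPM in precursors, a ratio of 10.8 and 7.89-fold. The highest neuronal value was 17.2 CPM in male interneurons and 23.6 CPM in female interneurons. Its relative Pde8b had another pattern, highest in astrocytes (441 and 399 CPM) and lowest in oligodendrocytes (70.5 and 42.6 CPM). Pde1c, a calmodulin-stimulated enzyme that hydrolyses both messengers, stood at 210.1 and 246 CPM in oligodendrocytes (intervals 197 to 224 and 234 to 258), 2.34 and 2.15-fold above precursors (89.7 and 115 CPM). After the stricter filter and renewed clustering, Pde1c in oligodendrocytes was below another class (log2 -0.40 in the lower library).

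The other calmodulin-stimulated enzymes had other orders of classes. Pde1a was high in CA1 (968 and 1117 CPM), the subicular class (880.4 and 1211 CPM) and CA3 (855 and 838 CPM). It stood at 186 and 168 CPM in granule neurons. Which of CA1 and the subicular class was higher differed between libraries, and Pde1a was lowest in astrocytes (96 and 61.4 CPM). The Gm49906 cluster of the subicular class stood at 313 and 726 CPM, and the others at 917 and 796 and at 1306 and 1441 CPM. Pde1b stood at 52.6 and 37 CPM in granule neurons and 47.9 and 44.3 CPM in microglia, and reached 20 CPM in both libraries nowhere else. It was lowest in CA3 neurons of the male (8.65 CPM) and oligodendrocytes of the female library (6.13 CPM).

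Pde3b (chromosome 7, 114415281 to 114539251), a cyclic AMP hydrolase that cyclic GMP inhibits and that is known from insulin action in fat and liver, had its peak in microglia. It stood at 1117 and 1514 CPM in microglia (intervals 1060 to 1176 and 1445 to 1586) and 97.9 and 90.7 CPM in CA1 neurons, the next class, a ratio of 11.4 and 16.7-fold. UMIs lay in 75.5 and 78.1% of microglial nuclei and 3.53 and 3.34% of oligodendrocytes. With every nucleus thinned to 1000 UMIs these shares were 61.8 and 69.8% and 1.84 and 1.98%. Its paralog Pde3a was highest in interneurons (149 and 119.8 CPM), ahead of precursors (63.1 and 74.1 CPM), and stood at 3.09 and 2.56 CPM in microglia. Pde3a was lowest in CA3 neurons of the male (0.529 CPM) and granule neurons of the female library (0.977 CPM).

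Interneurons were the highest class for Pde5a and Pde9a, the cyclic GMP-specific enzymes among the expressed members. Pde5a (chromosome 3, 122728947 to 122859374), the target of sildenafil, stood at 118 and 112 CPM (intervals 109 to 127 and 102 to 123), 17 and 20.5-fold above precursors (6.94 and 5.47 CPM). In the 4 excitatory classes it lay between 2.84 and 5.03 CPM. Pde9a (chromosome 17, 31386210 to 31476310), the phosphodiesterase with the highest affinity for cyclic GMP, stood at 88.3 and 86.8 CPM (intervals 80.4 to 96.7 and 77.9 to 96.4) against 38.7 and 36 CPM in subicular neurons, a ratio of 2.28 and 2.41-fold. It lost this margin in the lower library when all nuclei of the GABAergic clusters were counted (log2 0.63), in nuclei thinned to 1000 UMIs (0.99) and after the stricter filter with renewed clustering (0.88).

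**Figure D2:**
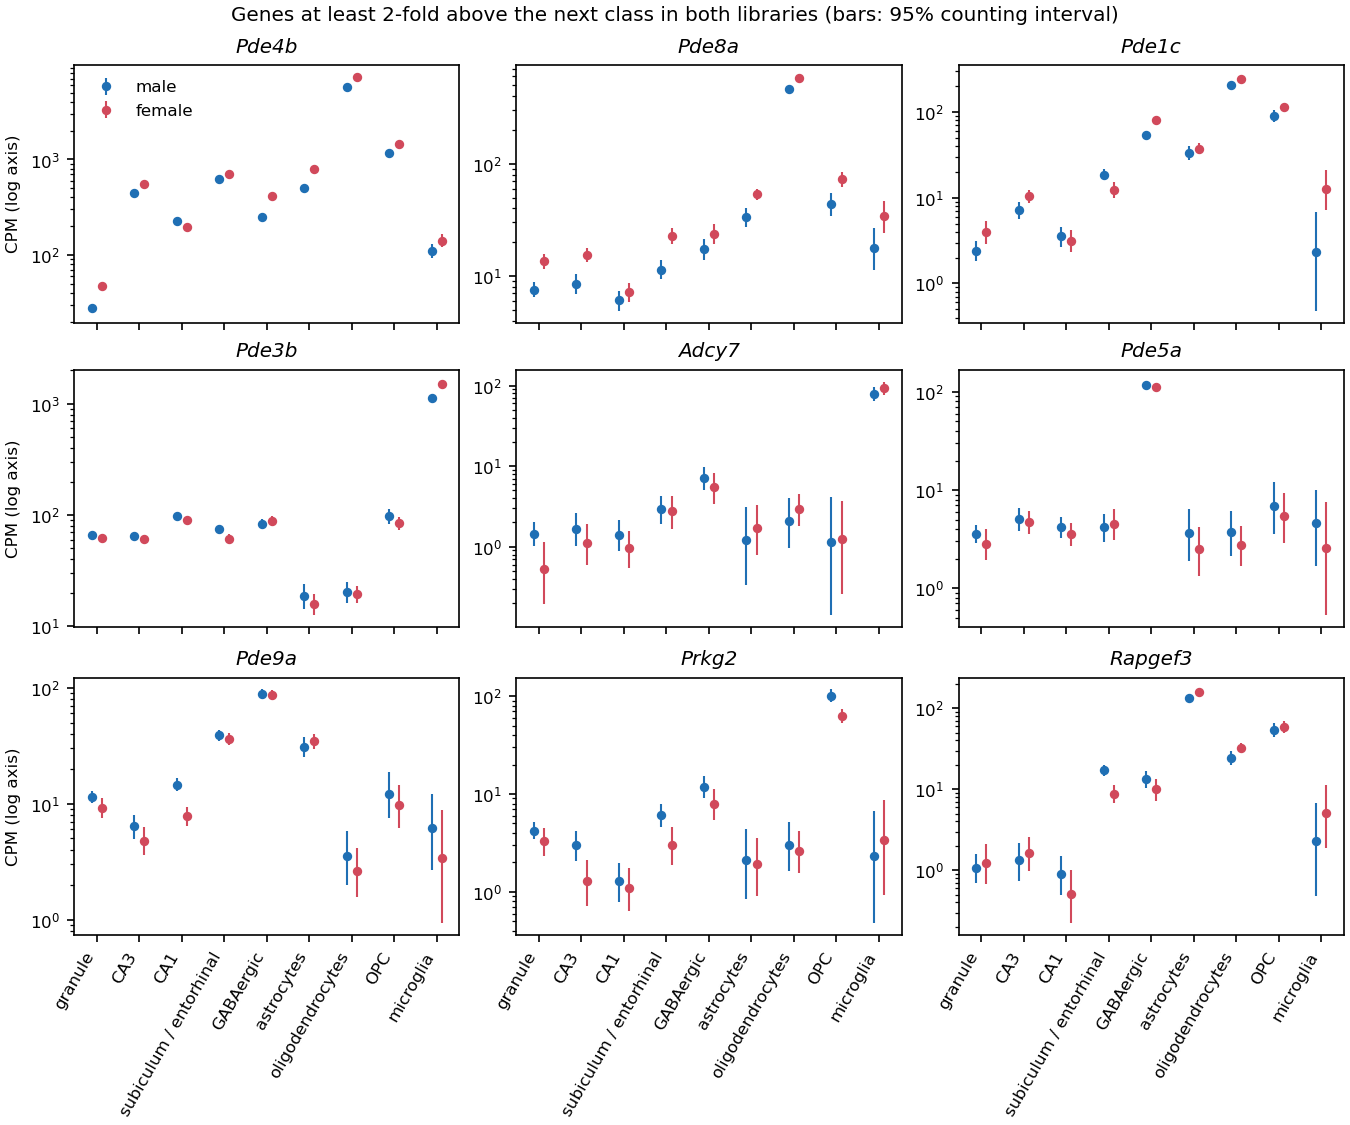
CPM (log axis) of the 9 members whose highest class lay at least 2-fold above the next in both libraries, in each of the 9 classes. Points are the male (blue) and female (red) library, and bars are 95% counting intervals. In each panel the same class is highest for both colours. The lowest of these peaks is Adcy7 in microglia in the male (78.9 CPM) and Prkg2 in precursors in the female library (62.7 CPM). The highest is Pde4b in oligodendrocytes (5748 and 7269 CPM).

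Pde4d (chromosome 13, 108449948 to 109953461), the longest member at 1504 kb, was highest in CA3 neurons (2726 and 3156 CPM) and next in interneurons (2254 and 2480 CPM), and every CA3 nucleus of both libraries held a UMI of it. It was lowest in oligodendrocytes of the male (144 CPM) and granule neurons of the female library (330.1 CPM). Pde4a was highest in subicular neurons (209 and 132 CPM), with granule neurons close (173 and 123 CPM), and lowest in precursors of the male (60.8 CPM) and astrocytes of the female library (36.4 CPM). Both are cyclic AMP-specific, as is Pde4b, and the 3 paralogs thus had different highest classes. Pde7b, cyclic AMP-specific too, was high in precursors (459 and 423 CPM), granule neurons (376 and 386 CPM) and astrocytes (264 and 319 CPM), and lowest in oligodendrocytes (14.3 and 9.63 CPM). Pde7a was flatter, from 43.1 CPM in astrocytes to 88.3 CPM in granule neurons of the male library. In the female library it ranged from 40.1 CPM in microglia to 76.6 CPM in interneurons.

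Among the enzymes that hydrolyse both messengers, Pde10a, known as the striatal phosphodiesterase, was high in CA1 (959 and 1025 CPM), subicular (919 and 934 CPM) and GABAergic neurons (889 and 1053 CPM), and lowest in microglia (67.3 and 41.8 CPM). Pde2a, which cyclic GMP stimulates, was highest in CA1 (169 and 153 CPM) and lowest in precursors of the male (63.6 CPM) and astrocytes of the female library (49.6 CPM). Pde11a was highest in interneurons (195 and 291 CPM) and next in CA1 neurons (119.9 and 98.7 CPM), and lowest in granule neurons of the male (4.19 CPM) and astrocytes of the female library (3.44 CPM). Pde6d, whose product is a carrier of prenylated proteins and no hydrolase, was highest in oligodendrocytes (50.8 and 40.4 CPM) and lowest in CA1 neurons of the male (21.4 CPM) and CA3 neurons of the female library (14.7 CPM).

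Of the effectors, the 6 PKA subunits were all expressed and none had a dominant class. Prkar1a was highest in microglia of the male library (178 CPM) and in astrocytes of the female library (112 CPM), and lowest in CA3 neurons (74.3 and 52.5 CPM). The catalytic subunit Prkacb was highest in oligodendrocytes (172 and 144 CPM) and lowest in CA1 neurons (40.7 and 34.8 CPM), and the catalytic subunit Prkaca was highest in microglia (61.8 and 43.5 CPM) and lowest in precursors of the male (31.8 CPM) and CA1 neurons of the female library (23.9 CPM). The type I regulatory subunit Prkar1b, the neuronal form, was highest in interneurons (106 and 84.3 CPM) and subicular neurons (102 and 75.9 CPM), and lowest in precursors of the male (49.8 CPM) and astrocytes of the female library (35.8 CPM). Prkar2a, of type II, stood highest in astrocytes (59.9 and 53.4 CPM) and lowest in CA1 neurons (35.1 and 27.2 CPM). Its paralog Prkar2b was highest in granule neurons (50.1 and 38.2 CPM) and lowest in astrocytes (9.42 and 5.74 CPM).

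Within the 9 classes, each taken as a whole, the PKA subunits were higher in the male than in the female library almost throughout. For male against female, a pair of a gene and a class was used if its UMIs in the libraries summed to 100 or more and if it reached 20 CPM in 1 of them, and the log2 ratio was taken after adding 5 CPM to both values. Of 49 such pairs of PKA subunits 48 were higher in the male library, with a median log2 ratio of 0.37, and the exception was Prkar2a in microglia at -0.07 (-0.54 to 0.41). Brackets after a log2 ratio hold its 95% interval. Of all genes that met the same floor, 55.7% in microglia to 70.5% in CA3 neurons were higher in the male library. The 49 pairs are 6 genes over classes of the same 2 libraries, so they are not separate observations. Prkar1a was at 108 and 77.7 CPM in granule neurons, a log2 ratio of 0.45 (0.35 to 0.56), and its ratios over the 9 classes lay between 0.37 and 0.66. No PKA pair reached 2-fold. The median of all genes that met the same floor was itself above 0 in each class, between 0.05 and 0.12, and after subtracting it 47 of the 49 pairs remained above 0 (median 0.28).

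The promoters of 4 of these subunits are printed to show the sequences behind the PKA members, as the 250 bases before a RefSeq transcription start (GRCm38.p6). No relation between these sequences and the ratios was tested. As background, the cyclic AMP response element is written TGACGTCA, and its core TGACG. Of the 6 PKA genes, 5 had the core, on either strand, in at least 1 window from 250 bases before to 50 after a start. The same held for 16 of the 37 members with a promoter in the table and for 23.0% of 27025 genes. A gene with several starts has several chances to hold it. Per window, the core was found in 7 of 19 windows of the PKA genes, in 18 of 76 windows of all members and in 20.8% of 32851 windows, and the full element, whose letters contain the core, in 1.79% of windows and, among members, in Prkar1a alone. A match is a description of the letters and no evidence of binding. In the sequences below, 5' to 3' on the gene's strand, capitals mark TGACG or its complement CGTCA, and the full element where both join.
Prkar1a, chr11:109650699-109650948, plus strand, with the full element 49 bases before the start: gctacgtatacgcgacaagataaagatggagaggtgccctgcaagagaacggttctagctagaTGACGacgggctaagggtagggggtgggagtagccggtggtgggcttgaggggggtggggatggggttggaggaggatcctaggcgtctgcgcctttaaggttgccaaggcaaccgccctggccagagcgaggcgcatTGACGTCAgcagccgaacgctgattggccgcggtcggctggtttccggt
Prkaca, chr8:83972728-83972977, plus strand, with a core 6 bases before the start: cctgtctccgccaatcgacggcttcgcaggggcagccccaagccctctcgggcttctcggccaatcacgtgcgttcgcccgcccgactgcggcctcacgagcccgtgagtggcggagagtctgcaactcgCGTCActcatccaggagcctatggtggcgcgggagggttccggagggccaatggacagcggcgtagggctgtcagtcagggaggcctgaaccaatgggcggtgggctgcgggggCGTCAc
Prkar1b, chr5:139150002-139150251, minus strand, with a core 49 bases before the start: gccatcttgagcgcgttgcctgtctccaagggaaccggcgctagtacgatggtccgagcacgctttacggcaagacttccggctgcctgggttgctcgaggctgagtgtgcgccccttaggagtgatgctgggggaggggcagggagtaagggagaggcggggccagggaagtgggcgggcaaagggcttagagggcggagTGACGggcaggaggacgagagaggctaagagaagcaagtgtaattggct
Prkar2b, chr12:32061278-32061527, minus strand, the gene without a match: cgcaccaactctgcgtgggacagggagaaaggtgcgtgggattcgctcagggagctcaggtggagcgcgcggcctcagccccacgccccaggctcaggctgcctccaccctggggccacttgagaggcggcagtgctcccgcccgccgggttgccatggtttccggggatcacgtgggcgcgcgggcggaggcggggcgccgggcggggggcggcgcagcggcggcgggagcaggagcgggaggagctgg

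The windows of Prkar1a, Prkar1b and Prkar2b overlapped annotated exons by 28, 29 and 19 bases, and that of Prkaca overlapped none. These genes have further starts in the table, so the windows are 1 of 6 for Prkar1a, 1 of 5 for Prkar1b and 1 of 2 for Prkaca and Prkar2b.

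The PKG genes had different orders of classes. Prkg1 was highest in CA3 neurons (1816 and 1945 CPM), above CA1 (1276 and 1320 CPM), granule neurons (1201 and 1263 CPM) and precursors (1094 and 974 CPM), and lowest in astrocytes (80.8 and 54.7 CPM). Prkg2 (chromosome 5, 98929773 to 99037351), the membrane-bound form, stood at 101 and 62.7 CPM in precursors (intervals 86.8 to 117 and 53.1 to 73.7) and 11.9 and 7.96 CPM in interneurons, the next class, a ratio of 8.53 and 7.89-fold. In mature oligodendrocytes it stood at 3.05 and 2.63 CPM. Some 30.8% of male and 20.4% of female precursor nuclei held a UMI of Prkg2, against 0.553 and 0.5% of oligodendrocytes. In precursors the log2 ratio of Prkg2 was 0.65 (0.35 to 0.95), an interval that covers counting error only.

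Rapgef3 (chromosome 15, 97744770 to 97767972), also called Epac1, stood at 134 and 160 CPM in astrocytes (intervals 122 to 147 and 149 to 171) and 54.4 and 59.4 CPM in precursors, a ratio of 2.47 and 2.69-fold. It lay at or under 1.63 CPM in granule, CA3 and CA1 neurons. Without doublet removal the log2 margin of Rapgef3 over the next class was 0.64 in the lower library, and 0.53 after the stricter filter with renewed clustering. Rapgef4, or Epac2, the brain form, was above 100 CPM in every class, highest in interneurons (561 and 571 CPM) and lowest in oligodendrocytes (169 and 224 CPM).

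Levels also differed between clusters and subclasses of 1 class. A difference was counted when the highest and the lowest group were the same in both libraries and at least 2-fold apart in both. Among the interneurons, divided into Sst (143 and 88 nuclei), Pvalb-like (154 and 119), Lamp5 (108 and 83) and Adarb2 (182 and 106) subclasses, 9 of 31 members differed in this way, against 13.7% of all genes: Pde11a, Pde5a, Prkacb, Pde4b, Pde3a, Pde4d, Adcy8, Pde9a and Prkg1. The GABAergic class and its subclasses left out a subcluster of 54 male and 179 female nuclei led by Gm2164 and one of 10 and 175 led by 2610307P16Rik, which no subclass markers named.

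Pde11a stood at 605 and 841 CPM in Lamp5 and 279 and 346 CPM in Pvalb-like interneurons, at 38.3 and 80.2 CPM in Adarb2 and at 3.32 and 9.16 CPM in Sst interneurons. Lamp5 interneurons include the neurogliaform and ivy cells. Pde3a and Pde5a had another peak, in Adarb2 interneurons, which include the Vip and Cck cells. Pde3a was at 320.2 and 274 CPM there and at 22.4 and 14.9 CPM in Sst interneurons. Pde5a was at 243 and 216 CPM in Adarb2, 117 and 123 CPM in Pvalb-like and 15 and 9.16 CPM in Sst interneurons.

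Prkg1 was highest in Pvalb-like interneurons (793 and 808 CPM) and lowest in Adarb2 interneurons (186 and 147 CPM). Pde4d was highest in Lamp5 interneurons (3634 and 3848 CPM) and lowest in Sst interneurons (1697 and 1823 CPM). Sst interneurons are the dendrite-targeting cells that release somatostatin. Adcy2, chosen after its values were seen, stood at 332 and 522 CPM in Sst and 405 and 418 CPM in Adarb2 interneurons, and at 51.7 and 81.3 CPM in Pvalb-like interneurons.

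**Figure D3:**
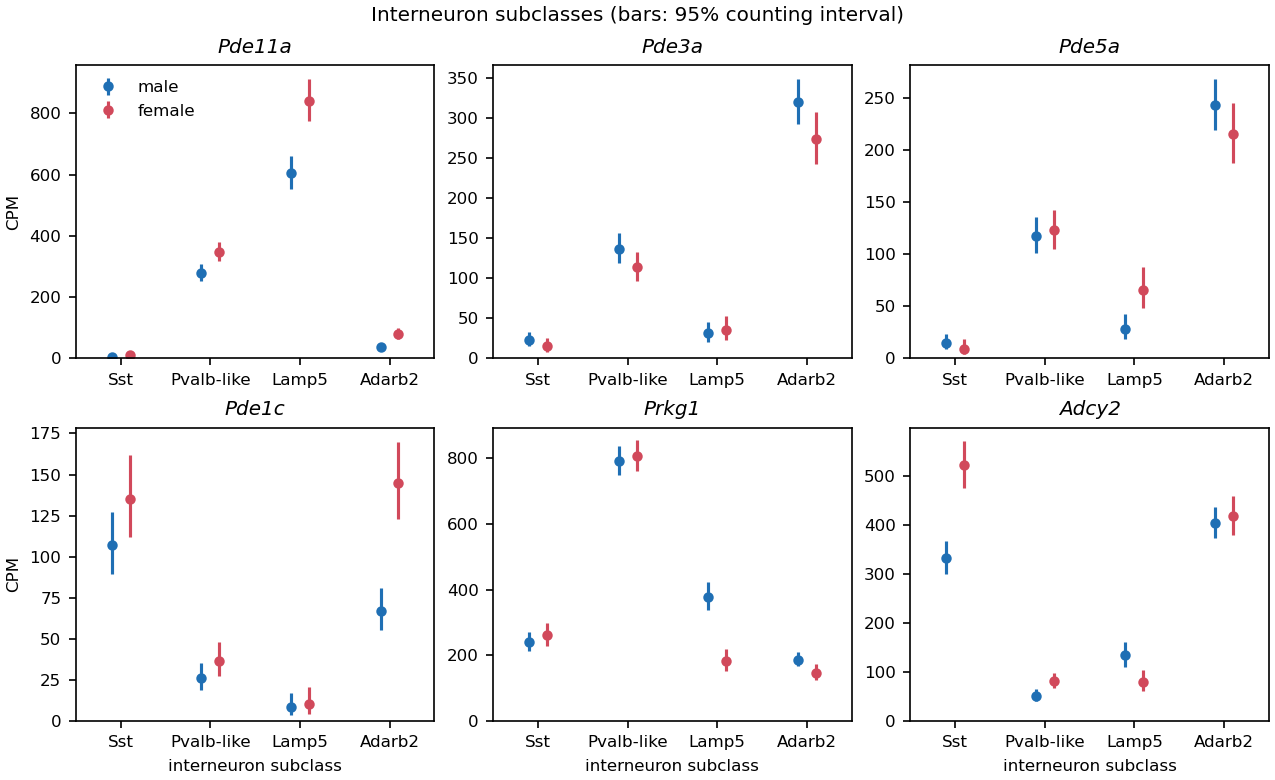
CPM of 6 members in the 4 interneuron subclasses, with 95% counting intervals as bars, in the male (blue) and female (red) library. Pde11a peaks in Lamp5 interneurons (605 and 841 CPM), Pde3a and Pde5a in Adarb2 interneurons, and Prkg1 in Pvalb-like interneurons. Pde1c and Adcy2 are low in Pvalb-like and Lamp5 interneurons. They did not meet the rule for a difference between subclasses, as the highest subclass of each differed between the libraries.

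Within the CA3 class, 6 of 25 members differed 2-fold between its clusters (3.6% of all genes), and all 6 were higher in the cluster led by Gm32647, with the mixed make-up described for it. Adcy1 stood at 201 and 163 CPM in that cluster and 78.6 and 61.2 CPM in the Nectin3 cluster. Adcy5 stood at 55.9 and 37 CPM against 18.3 and 12.5 CPM. Pde4b stood at 655 and 786 CPM against 284 and 267 CPM. The others were Pde4a, Pde7b and Adcy8. In the Gm32647 cluster 17.4% of barcodes had been called doublets and removed, against 1.5% in the Nectin3 cluster. The part of doublets in these differences was not tested.

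Within the subicular class, 7 of 32 members differed (7.19% of all genes). Pde11a stood at 149 and 112 CPM in the cluster led by Gm42705 and Fn1, and at 6.98 and 13.3 CPM in the cluster led by Vwc2l. Adcy10 stood at 58.9 and 37.6 CPM in the Gm49906 cluster and at 8.62 and 6.38 CPM in the Vwc2l cluster. Gucy1a1, Pde7b, Prkar2b, Pde4d and Pde9a also differed. No member differed between the clusters of granule neurons (0 of 28, against 2.79%) or between those of oligodendrocytes (0 of 29, against 1.09%). In astrocytes 4 of 29 differed (3.48%): Pde4b, Pde8a, Pde1c and Gucy1a1, between the larger cluster and the one rich in called doublets.

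Across all roles, 261 pairs of a member and a class met the floor, and 169 (64.8%) were higher in the male library. Of all genes that met it, between 55.7% and 70.5% were higher in the male library, depending on the class. No member pair was 2-fold higher in the male library, against 0.573% of 63521 pairs of all genes. A single pair was 2-fold higher in the female library, against 0.42% of all pairs: Pde4d in oligodendrocytes. By class, the share of all genes 2-fold higher in the male library was 0.425% in granule, 0.239% in CA3, 0.344% in CA1, 0.824% in subicular and 0.177% in GABAergic neurons, 1.04% in astrocytes, 0.751% in oligodendrocytes, 0.338% in precursors and 1.01% in microglia. The share 2-fold higher in the female library was, in the same order, 0.178%, 0.224%, 0.105%, 0.433%, 0.272%, 0.526%, 0.726%, 0.484% and 0.876%. The counts of members, 0 and 1 of 261 pairs, were thus near the background. The median log2 ratio was 0.09 for phosphodiesterases, 0.10 for adenylyl cyclases, 0.05 for soluble guanylyl cyclases, 0.37 for PKA subunits, 0.09 for PKG and -0.17 for Epac.

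Pde4d in oligodendrocytes stood at 144 CPM in the male library (616 UMIs) and 559 CPM in the female library (3830 UMIs), a log2 ratio of -1.92 (-2.04 to -1.80). The female level was thus several times the male level. A UMI of it was found in 19.96 and 50.8% of nuclei, and in 12.3 and 36.4% after thinning to 1000 UMIs. The libraries' oligodendrocytes fell largely into different clusters, and the log2 ratio was -1.63 within the cluster of mostly female nuclei and -1.99 within the cluster of mostly male nuclei. With the stricter filter it was -0.96 (371 and 725 CPM) when the nuclei were clustered again and -2.38 (143 and 765 CPM) when the classes were kept.

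In oligodendrocytes the summed CPM of markers of other classes went both ways. Higher in the female library were the 8 markers of interneurons (1420 and 2157), CA3 (884 and 1241) and CA1 (1907 and 2540). Lower were the 8 markers of granule neurons (712 and 565), astrocytes (1616 and 1458) and precursors (284 and 232). The class's own 8 markers summed to 10801 and 12938 CPM. No marker of these lists was at 0 in either library. The 8 interneuron markers summed to between 54 and 288 CPM in the excitatory classes, less than in oligodendrocytes. Such sums do not separate RNA of other classes from RNA that oligodendrocytes make themselves. The 8 choroid plexus markers fell from 2388 CPM in the male to 188 CPM in the female library. The part of these in the ratio of Pde4d was not tested.

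Pde4d was higher in the female library in all 9 classes, by a log2 ratio of -0.95 (-1.06 to -0.84) in astrocytes (269 and 524 CPM) and -0.14 (-0.18 to -0.10) in interneurons. Pde4a, its paralog, had the higher value in the male library in all 9. In oligodendrocytes it stood at 80.1 and 39 CPM, a log2 ratio of 0.95 (0.74 to 1.17), and in precursors, where the ratio was smallest, at 60.8 and 43.4 CPM. Pde4b was higher in the female library in 8 of 9 classes, with CA1 the exception at 0.17 (0.11 to 0.24), or -0.25 without doublet removal. In granule neurons the log2 ratio was -0.26 in 1 cluster and -2.02 in the other, where the levels were 35.4 and 159 CPM. The ratio of Pde4b in oligodendrocytes turned with the clusters, at -0.26 in the mostly female and 0.12 in the mostly male cluster, and was 0.16 after the stricter filter with renewed clustering. Of these 3 paralogs, Pde4a and Pde4d thus lay on opposite sides of 0 in all 9 classes. Pde8a was higher in the female library in all 5 classes where it met the floor, and in 6 of 7 after the stricter filter with renewed clustering. In the mostly male cluster of oligodendrocytes, however, Pde8a stood at 466 and 432 CPM, and in the mostly female cluster at 504 and 581 CPM. The 8 oligodendrocyte markers summed in granule neurons to 961 and 1339 CPM, in astrocytes to 2868 and 3704 CPM and in precursors to 1313 and 2199 CPM, with none at 0, and their part in the ratios of Pde4b and Pde8a was not tested.

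Over the 19 members that met the floor in all 9 classes, 7 had their higher value in the male library in each class (36.8%, against 24.4% of 4127 genes): Prkaca, Prkacb, Prkar1a, Prkar1b, Pde2a, Pde4a and Pde6d. Pde4d alone had it in the female library in each class (5.26%, against 3.42%). After centring each class on its median gene, the same 7 were higher in the male library (15% of all genes), and Rapgef4 joined Pde4d on the female side (9.91%).

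**Figure D4:**
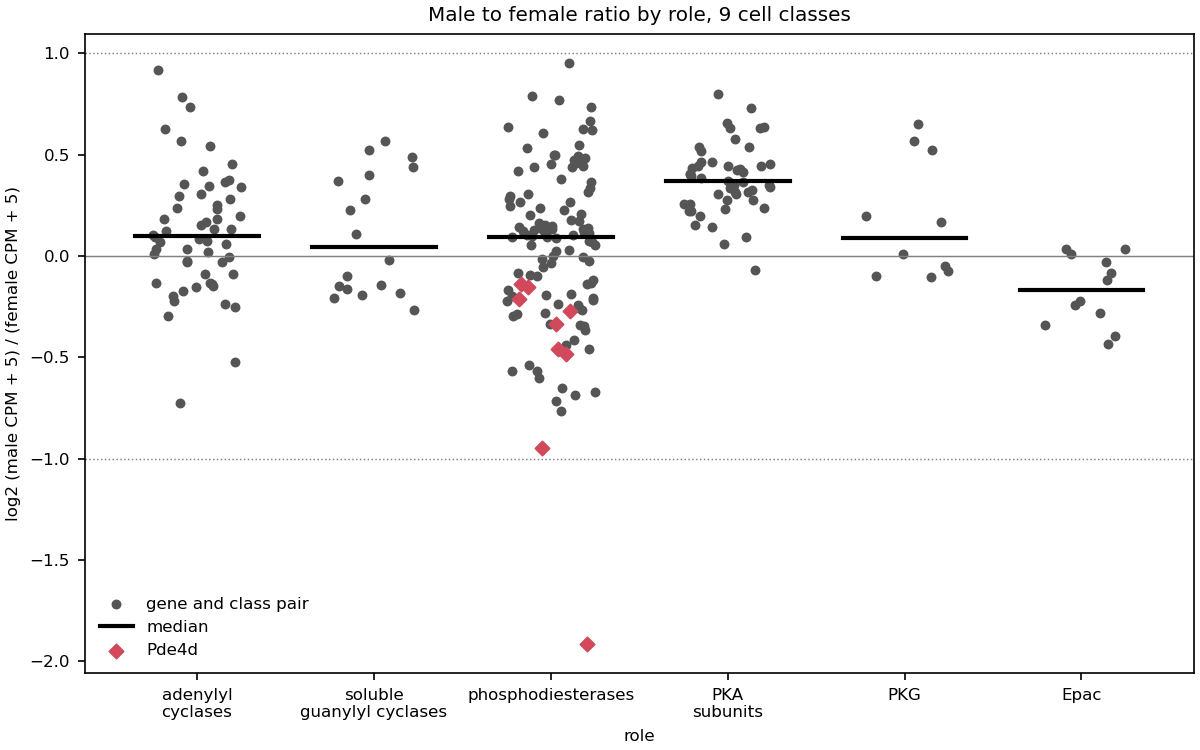
Log2 ratio of male to female CPM (5 CPM added to each) for the 261 pairs of a member and a class, by role; each point is 1 pair, red diamonds are Pde4d and black lines are medians. Dotted lines mark 2-fold. PKA subunits lie above 0 in 48 of 49 pairs, and Pde4d in oligodendrocytes lies lowest, at -1.92.

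Gene length moved with these ratios. Over all genes that met the floor, the median log2 ratio was between 0.12 and 0.23 for genes under 30 kb in the 9 classes. For genes over 300 kb it was between -0.13 and 0.17, and above 0 only in oligodendrocytes and microglia. Among members, the Pearson correlation of the ratio with log length was -0.84 in CA3 neurons (26 members), -0.73 in granule neurons (29), -0.33 in oligodendrocytes (29) and -0.20 in microglia (23). The points of a class share its 2 libraries, so this is a description. Pde4d spans 1504 kb and Prkg1 1201 kb. The PKA genes span 20.3 kb (Prkar1a), 23.5 kb (Prkaca), 61.1 kb (Prkar2a), 83.4 kb (Prkacb), 102.8 kb (Prkar2b) and 132.7 kb (Prkar1b). Rapgef3 spans 23.2 kb, and its ratios were below 0 in all 3 classes where it met the floor, between -0.34 in oligodendrocytes and -0.12 in precursors. In oligodendrocytes the 7 members over 300 kb had a median of 0.42, with Pde4d far below the rest. The part of gene length in the ratios was not tested.

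**Figure D5:**
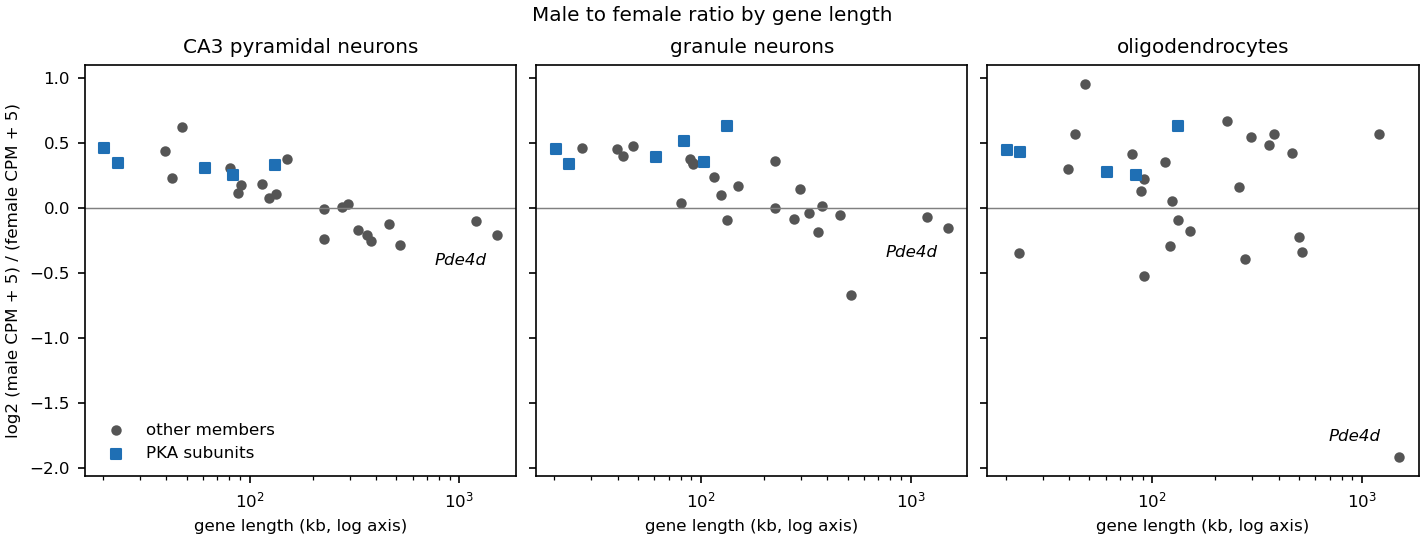
Log2 ratio of male to female CPM (5 CPM added to each) against gene length in kb (log axis) for members that met the floor in CA3 neurons, granule neurons and oligodendrocytes. Blue squares are PKA subunits. The ratio falls with length in CA3 neurons (Pearson r -0.84) and granule neurons (-0.73) and less so in oligodendrocytes (-0.33), where Pde4d lies at -1.92.

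Endothelial nuclei formed a class too small for the comparisons of classes (64 male and 247 female nuclei), and pericyte markers such as Rgs5 were among the genes that led their cluster. Pde4c, which did not reach 20 CPM in any larger class, stood at 24.9 and 33.5 CPM there (95% intervals 10.7 to 49 and 22.4 to 48.1). Adcy4, a cyclase known from endothelium, stood at 3.11 and 11.5 CPM. Pde8b stood at 734 and 590.1 CPM and Gucy1a1, a subunit of the nitric oxide receptor of the vessel wall, at 77.7 and 58.9 CPM. Of 18 members that met the floor, 1 was 2-fold higher in the male library (1.73% of 2596 genes), Pde4a at 162 and 62.4 CPM, a log2 ratio of 1.31 (0.76 to 1.85). Another was 2-fold higher in the female library (3.08% of genes), Pde4b at 323 and 1106 CPM, a log2 ratio of -1.76 (-2.06 to -1.47). In these nuclei the 8 oligodendrocyte markers summed to 2018 and 3359 CPM, the 8 GABAergic markers to 395 and 1052 CPM and the 8 granule neuron markers to 1306 and 654 CPM, with none at 0. Their part in the ratios of Pde4a and Pde4b was not tested.

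Other genes of the pathway, in lists fixed for this purpose, were described by the same measures. Of 8 G protein alpha subunits 6 were expressed, none with a dominant class, and over their 55 pairs the median log2 ratio was 0.36. Gnas, the stimulatory subunit, stood at 180 and 104 CPM in subicular neurons (0.76), and Gnaz, an inhibitory subunit, at 23.0 and 10.6 CPM in oligodendrocytes (0.84). Gnai3 (33.4 and 52.6 CPM in astrocytes, -0.58) and Gnao1 (691 and 815 CPM in oligodendrocytes, -0.24) had the lowest ratios. None passed 2-fold in either direction.

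Of the A-kinase anchoring proteins, which tether PKA to its targets, 19 of 20 listed were in the files and 16 were expressed. Ezr was dominant in astrocytes (95.1 and 146 CPM, against 24.0 and 23.9 CPM in the next class) and Cmya5 in microglia (50.3 and 68.2 CPM, against 22.2 and 31.6 CPM). Over 124 pairs 1 passed 2-fold, higher in the male library: Wasf1 in microglia at 191 and 90.4 CPM (1.04). Wasf1 in oligodendrocytes was next (216 and 121 CPM, 0.82), and Ezr (-0.59) and Cmya5 (-0.43) in astrocytes were lowest. PKA inhibitors and related genes had 6 of 10 expressed and no pair of 43 past 2-fold. Arpp21 was highest, in microglia (0.89) and oligodendrocytes (0.77), and Arpp19 in microglia (-0.30) and Pkig in oligodendrocytes (-0.21) lowest.

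Of 12 genes listed with the CREB family and its coactivators 10 were expressed, and no pair of 83 passed 2-fold. The list also held the kinases Sik1, Sik2 and Sik3. The acetyltransferase Ep300 was dominant in microglia (209 and 207 CPM, against 104 and 98.5 CPM). Creb5 in precursors came close to 2-fold (101 and 199 CPM, -0.94) and was also low in astrocytes (-0.77), while the coactivator Crtc1 was highest in astrocytes (120 and 65.8 CPM, 0.82) and granule neurons (0.51). Among the cyclic nucleotide gated channels, Hcn2 stood at 35.4 and 20.1 CPM in interneurons (0.69) and had a log2 ratio of 0.65 in subicular neurons.

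Of 12 genes in the list of nitric oxide synthases and membrane guanylyl cyclases 5 were expressed. The list also held the adaptor Nos1ap and the receptor Npr3, which are neither. Gucy2f, a guanylyl cyclase known from the retina, was dominant in oligodendrocyte precursors at 59.0 and 55.6 CPM, against 3.87 and 4.78 CPM in the next class. This is the class in which the cyclic GMP kinase Prkg2 was dominant. The natriuretic peptide receptor Npr3 was dominant in CA1 neurons (110 and 152 CPM, -0.45). Nos1 was at 22.5 and 10.1 CPM in astrocytes (0.86) and at 0.49 in granule neurons, and its adaptor Nos1ap at 391 and 580 CPM in subicular neurons (-0.56). Of the phosphodiesterase genes outside the rule, Pde6g, Pde6h and Pde12, none was expressed.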

How the data were processed

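Per the labels' protocols, 10000 nuclei were aimed for in each droplet library (3' kit, version 3.1). The authors deposited raw UMI counts for each gene in each barcode, for which the file headers name Cell Ranger 7.0.1. The submitters' processing notes add bcl2fastq 2.20.0.422 and the build mm10. Not given in the sources used here are the annotation release, whether intronic reads and strand were used, and how nuclei were called, so reads of members and of genes that overlap them (antisense genes for 14 members, among them Pde5a, Pde9a and Rapgef3, and Gm15672 for Prkar1b) may not be told apart.

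Barcodes needed 500 genes or more and no more than 5% mitochondrial UMIs (16034 male and 19251 female passed). Scrublet in scanpy 1.11.5 called 9.57% of male nuclei as doublets by its automatic threshold; in the female library that threshold called 0%, so the highest scores were called (7.51%). The libraries were thus treated by different thresholds. Called nuclei and 5 of 30 clusters with over 40% called nuclei were removed. The 3000 most variable genes, without the members, the pathway genes that are not markers, Stra8, sex-linked check genes and mitochondrially encoded genes, were reduced to 40 components and clustered by the Leiden method (leidenalg 0.10.2, 15 neighbours, resolution 1). Clusters were named from 8 markers per class, with at least 3 markers over 2-fold at 20 CPM. A cluster led by 6330411D24Rik and Ebf2 was left unnamed by a rule added after the data were seen: its 4 best markers lay more than 3 (log2) below those of another cluster of the same best class.

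CPM were computed here from summed counts. Before the log2 ratio of male to female was taken, 5 CPM were added to each, so those of low genes are understated. Intervals are exact Poisson (CPM), exact conditional binomial (ratios) and exact Clopper-Pearson (shares), all at 95%, and cover counting error only. Alternatives were doublet removal, a stricter filter (1000 genes, 1% mitochondrial UMIs), resolution 0.5, thinning to 1000 UMIs, the CPM total, the pseudocount, centring and the floor; those on whole GABAergic clusters, on the stricter filter with the classes kept and on the astrocyte cluster rich in doublets were added after seeing the data. The scripts were tested on simulated data. Promoters came from RefSeq (37 of 46 members matched).

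Every member is named under its role. Values by class are given for members whose highest class is shared and dominant, and the highest and lowest classes for the others. Pairs past 2-fold, and the 2 highest and 2 lowest ratios of each pathway list, are named, except for 1 list whose lowest ratios are not reported here. Members and lists were chosen with earlier results of these data known.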

Additional observations from a re-analysis of the deposited data

How the results depend on the processing

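No paired analysis was possible because each group had 1 library. The number of expressed members (39 to 41), of members with a shared highest class (26 to 31 of them) and of members with a dominant class (7 to 10) stayed within 1.5 times the reported counts under every alternative run. Under these alternatives, 61.9 to 77.0% of all expressed genes had a shared highest class and 8.85 to 17.0% a dominant class. The dominant members themselves changed. After the stricter filter with renewed clustering Pde4b, Pde1c, Rapgef3 and Pde9a dropped out, and Pde11a and Pde3a were added. Of all expressed genes 8.85% then had a dominant class, against 16.1%. Without doublet removal 2 pairs were 2-fold higher in the female library (Pde8a in microglia was added), and with whole GABAergic clusters also 2 (Pde1a in interneurons, -1.35). Thinning to 1000 UMIs gave 3 such pairs and 1 higher in the male library (Adcy8 in microglia, 1.26), and centring gave 2. A pseudocount of 1 CPM gave 1 pair higher in the male library (Pde4a in oligodendrocytes, 1.02). The stricter filter gave 2 pairs in each direction when clustered again, without Pde4d in oligodendrocytes, and with the classes kept 1 toward male and 2 toward female. The pairs that met the floor numbered 277 without doublet removal and 178 after thinning. With the stricter filter they numbered 259 when clustered again and 202 with the classes kept. The share of all genes past 2-fold was not computed under these alternatives, so the counts have no background beside them. After thinning 25 of 25 PKA pairs that met the floor were higher in the male library. The class median of the member ratios was 0.15 in granule neurons after thinning and 0.13 after centring, against 0.24. In CA3 neurons it was -0.024 and -0.0031, against 0.11. In CA1 neurons it was 0.051 after centring, against 0.16. With the stricter filter and the classes kept it was 0.047 in oligodendrocytes, against 0.28, and -0.21 in microglia, against 0.28. The margin of Pde1c in oligodendrocytes over the next class fell below 0 (log2 -0.40) after the stricter filter with renewed clustering. The shifts of the class medians under centring equal the median of all genes of the class, which centring subtracts. The cause of the other shifts was not tested. Of the other values under an alternative, 340 stayed within their counting interval and 92 moved outside it. Depth limits the rarest members: Adcy7 rests on 102 male and 109 female UMIs in microglia, and 1 library per group allows no statement beyond these libraries.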
